A study of Rattus norvegicus with 20 samples.

Results

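These data describe the ovary of unexposed Sprague Dawley rats at 46 days of age. They are the 5 arrays of the 0 mg/kg/day group, out of 20 arrays in the study, and each was hybridised with Cy3-labelled total RNA of the whole ovary of 1 young female from a litter of its own. The dams of this group ate a diet with 0 mg/kg of a brominated flame retardant mixture (DE-71, DE-79, BDE-209 and hexabromocyclododecane) from before mating until the pups were weaned at day 21, and the offspring ate no such diet afterwards. The other 15 arrays come from litters of dams given diets formulated to deliver 0.06, 20 or 60 mg/kg/day (4, 5 and 6 arrays). No dose is compared here. The exposed arrays serve to show whether detection, brightness, spread and patterns seen in the unexposed ovaries recurred in other animals. They also entered a fit of differences between slides. The stage of the oestrous cycle of each animal is not given in the sources used here. In RNA from a whole organ, fewer cells of a type and less RNA per cell cannot be told apart.

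The ovary holds follicles, in which an oocyte is nursed by granulosa cells and ringed by theca cells, and corpora lutea, which form from ovulated follicles. Luteinising hormone drives theca cells to make androgen through the enzyme Cyp17a1, granulosa cells turn it into oestrogen, and luteal cells make progesterone. Corpora lutea that are regressing express Akr1c18, which inactivates progesterone, so whole-ovary RNA in rats is known to change with the cycle. Beside the ovary lie its bursa and the oviduct, whose lining carries ciliated cells.

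The value of a gene is the log2 processed signal of its brightest probe minus the log2 75th percentile of the array, so that a level of 0 equals the signal that 75% of non-control spots on the array lie below. Values were obtained for 15705 named genes. The signal of a probe depends on its sequence as well as on the amount of RNA, so brightness does not rank genes by RNA amount. The 75th percentile itself ran from 1419 to 1737 signal units over the 5 arrays, no spot was saturated, and 77.9% to 83.4% of spots were well above background. Replicates 1 and 2 lay on slide 1, replicate 3 on slide 2, and replicates 4 and 5 on slide 3. The scanner output gave a spike-in slope of 0 on replicates 4 and 5 and of 1.02 to 1.04 on the other 3. Across genes the levels of any 2 of the 5 arrays correlated with r between 0.967 and 0.989, genes not being independent replicates.

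Most genes with a name on the array gave signal in the ovary. Of 15705 genes, 11610 (73.9%) were well above background on all 5 arrays, 2710 (17.3%) were not well above background on any, and 1385 (8.82%) were so on 1 to 4 of them. The lowest level still called well above background was -7.69 on replicate 4 and -7.28 on replicate 3, and the other 3 arrays lay between. The division was much the same in the exposed ovaries. Of the 2710 genes, 2546 (93.9%) were also not well above background on any of the 15 exposed arrays, and only 1 was well above on 8 or more of them. Of the 11610 genes, 10995 (94.7%) were well above background on all 15. Of 11590 probes that carry no gene name, 7475 were well above background on all 5 arrays.

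Genes of the senses and of epithelial surfaces were often under background. Among olfactory receptor genes 44 of 55 were not well above background on any array (80.0%, against 17.3% of all genes), and among trace amine receptors 12 of 15 were. Vomeronasal receptor genes were split, with 70 of 113 (61.9%) under background throughout and 23 well above it on all 5 arrays. The brightest of those was Vom2r34, at 0.93, 1.28, 1.18, 1.42 and 1.64 on replicates 1 to 5. Beta-defensins were under background for 21 of 37 genes, keratins for 21 of 45, claudins for 10 of 26, and Hox cluster genes for 9 of 22. Of 91 potassium channel subunits, 26 (28.6%) were under background, and of 69 cytochromes P450 23 (33.3%) were. Families of general cell function stood at the other end. No member of 38 proteasome subunits, 40 complex I subunits, 47 translation initiation factors or 22 collagens was under background throughout, and of 169 zinc finger genes named Zfp only 2 were.

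Genes known for other organs were often not well above background in the unexposed ovary. In the testis and sperm list 10 of 18 measured genes were under background on all 5 arrays, among them Odf1 and Akap4 of the sperm tail, Tnp2 of sperm chromatin and Dmrt1, a determinant of male gonads. In the liver list the count was 8 of 18, including the clotting genes Fga, Fgb and F9, Tat of amino acid breakdown, and Apob. Albumin was well above background on replicate 1 alone, at -6.65. The brain list had 8 of 17 under background, with Syt1, Slc17a7, Gad2 and Olig2 among them, the pancreas and gut list 8 of 16, with Gcg and Prss1, and the pituitary list 6 of 14, with Gh1, Prl and Tshb. Muscle (3 of 17) and kidney and lung (4 of 18) lay nearer the 17.3% of all genes. Several genes named for other organs were bright. Hp, which encodes the haemoglobin scavenger haptoglobin, stood at 2.64, 2.98, 4.23, 2.33 and 6.51, and Tf, the iron carrier transferrin, between 2.25 and 3.06. The cardiac myosin gene Myh6 stood between 2.60 and 4.22 on 4 arrays and at -1.08 on replicate 3.

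Among xenobiotic enzymes the dioxin-inducible genes Cyp1a1 and Cyp1a2 were not well above background on any array, with levels between -9.89 and -9.27. Cyp3a1 and Cyp3a2 were also under background throughout, so that 4 of the 26 measured genes of this list were (15.4%, against 17.3% of all genes). Cyp1b1, which metabolises oestradiol, was well above background on all 5 arrays at -3.82 ± 0.38 (SD, n = 5). The glutathione transferase Gsta1 was the brightest of the list at 4.80, 5.70, 4.98, 5.21 and 6.20. The aryl hydrocarbon receptor gene Ahr gave -4.45 on replicate 1 and between -5.99 and -5.61 on the other 4.

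**Figure D1:**
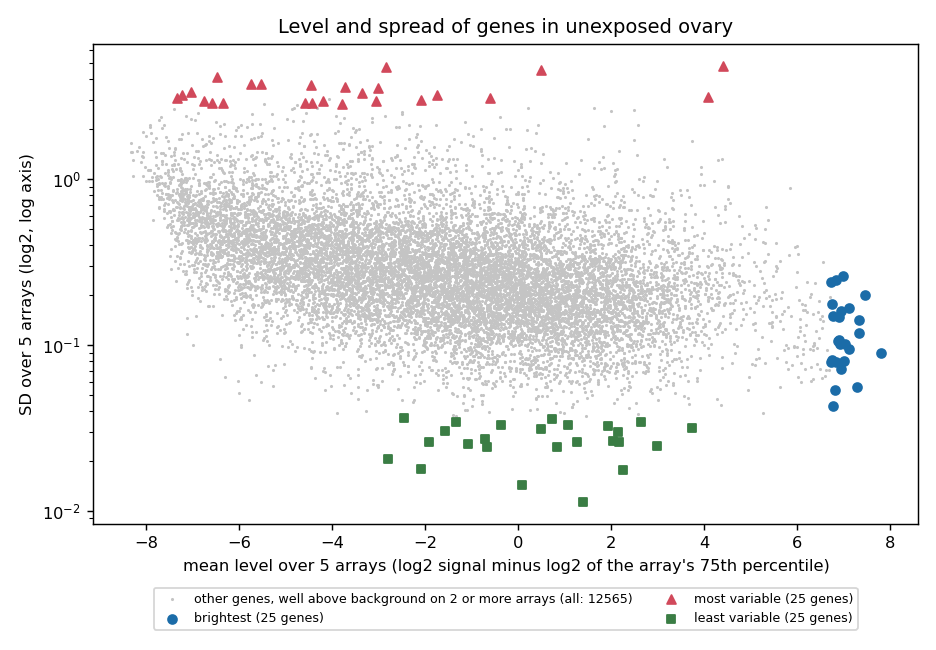
Mean level (x axis, log2 relative to the 75th percentile of each array) and SD over the 5 unexposed arrays (y axis, log2, log scale) of the 12565 genes well above background on at least 2 arrays. Blue circles are the 25 brightest genes, with SDs from 0.04 to 0.26, red triangles the 25 with the largest SD, and green squares the 25 with the smallest SD among genes well above background on all 5 arrays.

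Ribosomal protein genes and genes of progesterone synthesis headed the list of brightest genes. The 25 brightest, picked by their mean level, lay between 6.71 and 7.80, and 15 of them encode ribosomal proteins. Rpl41 was the brightest, at 7.86, 7.88, 7.81, 7.65 and 7.79. It was followed by Rplp0 at 7.46 ± 0.20 (SD, n = 5), Hsd3b1 at 7.34 ± 0.14, Rps12 at 7.33 ± 0.12 and Ceacam9 at 7.28 ± 0.06. Hsd3b1 turns pregnenolone into progesterone, and Ceacam9 is a member of the carcinoembryonic antigen family of cell surface proteins. Hsd3b1 gave 7.48, 7.47, 7.28, 7.15 and 7.29, a range of 1.26-fold over the 5 animals. Cyp11a1, which cuts the side chain of cholesterol in the first step of steroid synthesis, stood at 6.98, 7.30, 6.76, 6.71 and 7.19, the largest spread among the 25 (SD 0.26).

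The rest of the brightest genes are active in most cells. They were Actg1 of the cytoskeleton (6.94 ± 0.16), Ppia, a protein-folding enzyme (6.92 ± 0.10), the metal-binding Mt1 (6.83 ± 0.25), Tpt1 (6.74 ± 0.08), Chchd2l3 (6.75 ± 0.18) and Ftl1, the light chain of the iron store ferritin (6.71 ± 0.24). Twnk, which encodes the helicase of mitochondrial DNA, was also among them at 6.76 ± 0.04, but its other probe gave -1.82 ± 0.15, so the pair of probes disagree. When the mean over all probes of a gene was taken in place of the brightest, 13 of the 25 remained among the 25 brightest. Rpl19, at 6.70, stood just outside. None of the 25 had an SD over 1 within the dose groups of the exposed arrays, but only 318 of 12565 genes did (2.53%). On the exposed arrays 22 of the 25 were also among the 25 brightest.

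Genes of steroid synthesis were bright, and more of them than of all genes varied widely between the animals. All 21 measured genes of the list were well above background on all 5 arrays (background 73.9%), at a median level of 2.12 against -2.80 over all genes. Their median SD was 0.38 against 0.27 over the 12565 genes well above background on at least 2 arrays, and 5 of 21 had an SD over 1 log2, against 528 of those 12565 genes (4.2%). Fdx1 and Fdxr, which carry electrons to Cyp11a1, stood at 6.18 ± 0.13 and 6.17 ± 0.16. Star, which brings cholesterol into mitochondria, ran from 4.49 on replicate 1 to 5.39 on replicate 3. Scarb1, the receptor for high-density lipoprotein that supplies the cholesterol, stood at 5.22, 5.63, 5.36, 5.47 and 6.00. Hsd17b1, which makes oestradiol from oestrone in granulosa cells, stood at 3.94, 3.72, 2.87, 3.29 and 3.36, and Hsd17b4 between 2.66 and 2.82. The aromatase gene Cyp19a1 was not analysed here.

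Akr1c18, the 20-alpha-hydroxysteroid dehydrogenase that inactivates progesterone, had the largest spread of all genes. It stood at 7.02, 5.95, 6.55 and 6.69 on replicates 1 to 4 and at -4.23 on replicate 5. The highest array was 2429.9 times the lowest, and all 5 were well above background. Its other probe gave 6.40, 5.01, 5.67, 5.98 and -5.28. The RefSeq gene table names it Akr1c3. In 14 of the 15 exposed ovaries its level was 5.28 or higher, and in 1 it was -2.48.

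Cyp17a1 was low in a different animal. It stood at 3.47, 3.13, 3.33 and 2.69 on replicates 1, 2, 4 and 5 and at -2.62 on replicate 3, a difference of 67.9-fold between the extremes. Of the 15 exposed arrays 4 were at -2.63 or lower and the other 11 at 1.71 or higher, with none between. Hsd3b3, another gene of the 3-beta-hydroxysteroid dehydrogenase family, was low on replicate 4 alone. Its levels were 5.30, 5.88, 5.26, -1.50 and 5.48, a range of 166-fold, and 3 of the 15 exposed arrays were at -1.04 or lower while the rest were at 4.61 or higher. Hsd3b2 ran from 0.26 on replicate 5 to 3.27 on replicate 2. Probes of this gene family can hybridise with near-identical copies, so the assignment to Hsd3b1, Hsd3b2 or Hsd3b3 is uncertain. Srd5a1, the 5-alpha-reductase that acts on progesterone and testosterone, stood at 0.65 on replicate 3 and between -3.15 and -2.18 on the other 4 arrays. Thus 3 of these switches fell on 3 different animals, and each gene kept within 1.1 log2 on the 4 arrays on which it was high.

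**Figure D2:**
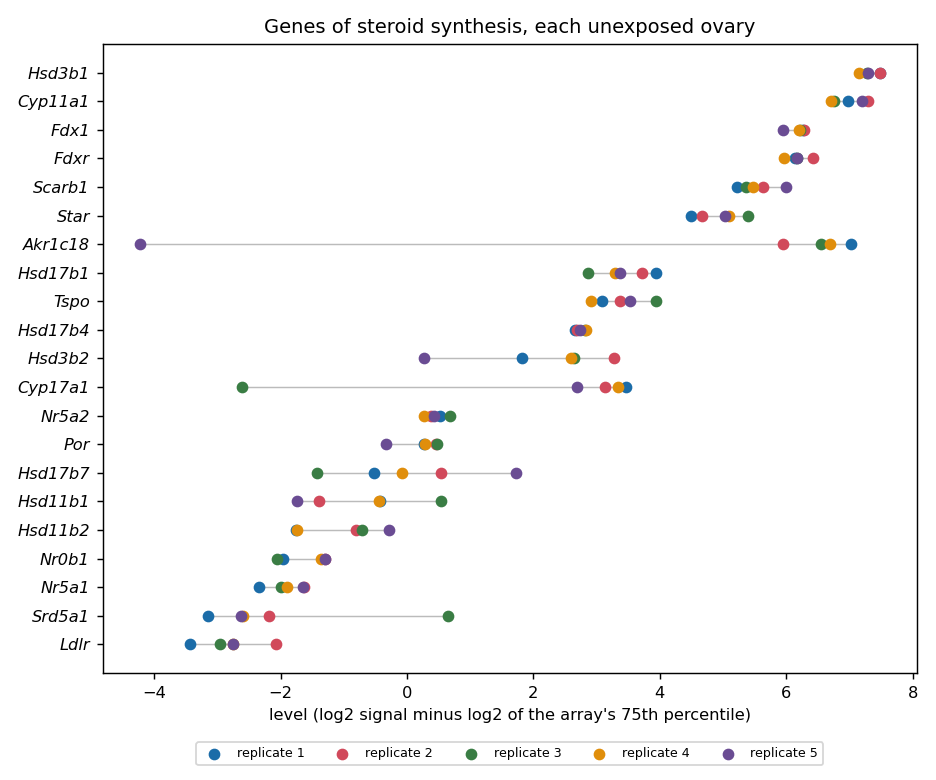
Levels of the 21 measured genes of steroid synthesis (x axis, log2 relative to the 75th percentile of each array), with 1 point per unexposed ovary, coloured by replicate, and a line from the lowest to the highest. Hsd3b1, Cyp11a1, Fdx1 and Fdxr span less than 1 log2, whereas Akr1c18 on replicate 5 (-4.23) and Cyp17a1 on replicate 3 (-2.62) lie far from the other 4.

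The receptors through which the pituitary and the ovary's own steroids act were measured for 20 genes, of which 17 were well above background on all 5 arrays. Lhcgr, the receptor of luteinising hormone on theca, luteal and preovulatory granulosa cells, was the most variable of them, at -1.19, -1.06, -3.19, -1.09 and 1.32. Its lowest value fell on replicate 3, the array on which Cyp17a1 was low, and its highest on replicate 5, on which Akr1c18 was low. Fshr, the receptor of follicle-stimulating hormone on granulosa cells, was steadier at -1.04 ± 0.36, with the lowest value again on replicate 3 (-1.66). The prolactin receptor Prlr ran from 0.05 on replicate 3 to 1.30 on replicate 2, and Ptgfr, which receives the signal for luteal regression, from -1.27 on replicate 5 to 0.26 on replicate 1. The oestrogen receptor genes Esr2 and Esr1 were both well above background throughout, with SDs of 0.38 and 0.59. The progesterone receptor gene Pgr, which follicles express briefly before ovulation, was well above background on replicate 4 alone, at -5.81. The receptor of gonadotrophin-releasing hormone, Gnrhr, stood at 3.18, 2.71, 2.12, 2.59 and 3.30.

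Granulosa cell genes were the steadiest of the ovarian lists. All 22 measured genes were well above background on all 5 arrays, with a median SD of 0.31 and 1 of 22 over 1 log2, against 4.2% of all genes. Inha, the alpha subunit of inhibin, stood at 5.78, 5.61, 5.53, 5.73 and 5.83. Its partner Inhba was lower on replicate 3 (3.81) than on the other 4 arrays (4.71 to 5.47), and Inhbb lay between 3.04 and 3.76. Amh, made by small growing follicles, ran from 0.78 on replicate 3 to 1.87 on replicate 4. Igf1, which strengthens the action of follicle-stimulating hormone, was highest on replicate 3, at 4.50 against 3.16 to 3.94. Grem1, an antagonist of bone morphogenetic proteins, was the gene over 1 log2, at -2.40 on replicate 1 and between -5.63 and -4.20 on the rest. Foxl2 was not analysed here.

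Oocyte genes moved together over the 5 arrays. Of 19 measured genes 17 were well above background on all 5 arrays and the other 2, Sohlh2 and Ddx4, on 2 arrays each. Gdf9, an oocyte growth factor, stood at -0.68, -0.55, -0.44, 0.49 and 0.03, and Zp2 of the zona pellucida at -1.06, -0.80, -0.77, 0.03 and 0.39. In 17 of the 19 genes both highest values were those of replicates 4 and 5, as they were in 23.5% of the 12565 genes. The mean deviation of the list was 0.53 and 0.44 on those arrays and between -0.37 and -0.26 on the other 3. Replicates 4 and 5 are the arrays of slide 3. In limma's fit of slide and dose over all 20 arrays, 2 of the 19 genes (Bmp15 and Zar1) had a slide effect at an adjusted p under 0.05, against 1719 of 12565 genes (13.7%). How much of the shift belongs to slide in these 5 arrays was not tested.

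Theca, luteal and surface genes each had members that followed a single animal. Of the 13 measured theca and interstitial genes Cyp17a1 and Lhcgr had SDs over 1, and the mean deviation of the list was lowest on replicate 3 (-0.76) and highest on replicate 5 (0.56). Insl3, the theca hormone, ran from 1.58 on replicate 3 to 3.03 on replicate 2. Among luteal genes Sfrp4 was highest on replicate 3 (-0.24), and Timp1, an inhibitor of matrix proteases, stood at 4.66, 4.47, 5.99, 3.95 and 2.39. Hsd17b7, which luteal cells express, ran from -1.43 on replicate 3 to 1.73 on replicate 5. Of the surface epithelium genes Cdh1, the epithelial cadherin, was at -2.92 on replicate 3 against 0.72 to 1.94 elsewhere, and Calb2 was highest on replicates 3 and 5 (3.98 and 4.08, against 1.03 to 2.08).

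The genes that varied most between the 5 animals fell into few patterns. The 25 with the largest SD were picked by that SD among the 12565 genes, so their spread is a description and was not tested on these arrays. They had SDs between 2.86 and 4.84, and Nmu, at 2.84, stood just outside. In 12 of the 25 the highest array exceeded the lowest by more than 100-fold, where an array not well above background counts at its lowest level that is. Only 6 of the 25 were well above background on all 5 arrays. The set depended on single animals, since 16 of the 25 remained without replicate 4 and 16 without replicate 5, and on the background correction, since 10 remained under limma's normexp. Among them 11 genes were high on replicates 2 and 4 and low on the other 3 arrays, and 10 of the remaining 14 had their lowest level on replicate 5. Over the 12565 genes, both highest values fell on replicates 2 and 4 in 810, whatever the gap, and the lowest on replicate 5 in 2609.

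**Figure D3:**
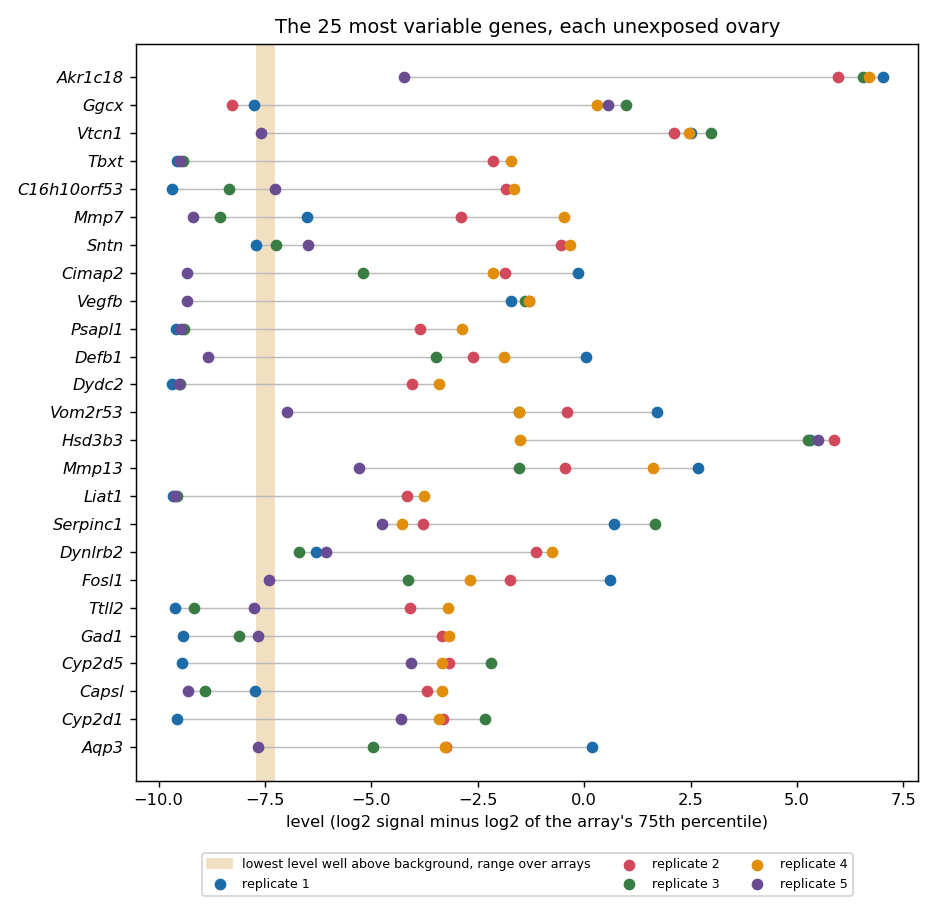
Levels of the 25 most variable genes (x axis, log2 relative to the 75th percentile of each array), 1 point per unexposed ovary coloured by replicate, with a line from lowest to highest. The shaded band spans the lowest levels called well above background on the 5 arrays (-7.69 to -7.28). The 11 genes with only replicates 2 and 4 to the right include Tbxt, Sntn and Dynlrb2, and replicate 5 lies far to the left for Akr1c18, Vtcn1 and Vegfb.

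A set of genes was high on replicates 2 and 4 alone. Over all 12565 genes, 47 had both values on replicates 2 and 4 above the other 3 by at least 2 log2. This gap also had to be the largest between neighbouring values. The count was the most of any pair of arrays, and the next pair had 5 genes. Whatever the gap, both highest values fell on replicates 2 and 4 in 810 of the 12565 genes (6.45%). Foxj1, the transcription factor that switches on the genes of motile cilia, stood at -6.87, -2.20, -7.21, -1.76 and -6.33. Sntn, a protein of the tip of cilia, stood at -7.72, -0.55, -7.24, -0.33 and -6.48, so that replicate 4 exceeded the lowest array at least 138-fold. Dynlrb2, a dynein light chain, stood at -6.30, -1.12, -6.70, -0.77 and -6.07. Levels on the 2 high arrays differed by less than 0.5 in each of these 3 genes, and the gap to the other arrays is what the rule chose. Other members with known ciliary roles were Tekt2, Tekt4, Dnali1, Deup1, Daw1, Dnai3, Rsph10b, Cfap52 and Cfap206.

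Members with other roles included proteases, junction proteins and transcription factors. Mmp7, the protease matrilysin, was at -0.48 on replicate 4 and -2.90 on replicate 2 against -9.19 to -6.51, and Tspan1 at -0.20 and -0.39 against -5.29 to -3.94. Cldn3, a tight junction protein, stood at -4.32, -1.98, -5.24, -1.70 and -6.11. Tbxt, the T-box factor brachyury, stood at -2.15 and -1.73 on replicates 2 and 4 and was not well above background on the other 3. Of the 47 genes 30 were well above background on exactly those 2 arrays and 8 on all 5.

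Markers of the oviduct moved with these genes. In the list of oviduct epithelium, 16 genes were measured, and its mean deviation was 0.71 on replicate 2 and 0.90 on replicate 4 against -0.56, -0.86 and -0.19 on replicates 1, 3 and 5. Foxj1 is a member of both sets. Cldn4 stood at -6.36, -4.60, -6.42, -3.59 and -5.85, and Dnai1 at -8.98, -5.44, -9.36, -5.49 and -6.30. Pax8, a factor of the secretory cells of the tract, stood at -4.49, -4.17, -4.67, -4.29 and -5.19, with its highest values also on replicates 2 and 4 but a far smaller gap. Wfdc2, a secreted protein, stood at 0.08, 0.17, 0.35, 0.36 and 0.40 and had no such gap. Ovgp1, the oviduct glycoprotein, was not analysed here, and the part of oviduct tissue in the result was not tested. The same genes were high in particular exposed animals. On the exposed arrays 40 of the 47 had their highest level on replicate 5 of the 20 mg/kg/day group, which held the highest level of 8.85% of all 12565 genes, and the other 7 on replicate 6 of 60 mg/kg/day. The level of Sntn was -0.09 in the first of these.

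The 250 bases before the start of Sntn are shown because its levels on replicates 2 and 4 were the highest among the ciliary genes named above, with the letters GTTGCC, a core of the sequence bound by RFX factors, in capitals. It comes from RefSeq (GRCr8, chr15:13956091-13956340, minus strand).
Sntn: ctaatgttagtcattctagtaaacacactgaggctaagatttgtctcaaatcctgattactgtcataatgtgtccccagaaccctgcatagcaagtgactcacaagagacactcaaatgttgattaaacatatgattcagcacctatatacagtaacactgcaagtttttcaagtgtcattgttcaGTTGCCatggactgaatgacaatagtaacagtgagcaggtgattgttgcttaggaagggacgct
GTTGCC was searched on both strands in genes with a single promoter entry in RefSeq's table. It occurred in 11 of the 43 such genes of the pattern (25.6%) and in 2379 of 24206 promoters of the same length (9.83%). A match of letters is no binding site, and the set was chosen by its levels.

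For some genes a single array stood apart. For a gene to count, the gap between 1 array and the nearest other had to take most of the range (Dixon's ratio for 5 values) and be at least 1 log2. This held for 180 of 12565 genes (1.43%), of which 44 belonged to replicate 1, 4 to replicate 2, 68 to replicate 3, 2 to replicate 4 and 62 to replicate 5. The 430 genes well above background on only 1 array could not count here. Without replicate 4, 3002 genes were under background on all arrays left, against 2721 to 2770 without any other replicate and 2710 over all 5. With slide effects removed 67 of the 180 remained, under normexp 105 and under quantile normalization 126. On replicate 5 there were 31 genes lower and 31 higher. After Akr1c18 the largest gap was that of Vtcn1, the immune checkpoint ligand B7-H4, at 2.50, 2.11, 2.97 and 2.45 on replicates 1 to 4 and -7.60 on replicate 5, where it was not well above background (at least 1274-fold). Slc51a, a subunit of a steroid and bile acid transporter, stood at 2.64, 2.72, 2.86, 3.08 and -3.14. Tafa5 stood at -1.32, -1.50, -1.32, -1.34 and -7.05, and the cell cycle inhibitor Cdkn2b at 1.45, 0.79, 1.38, 1.94 and -4.57. In all 5 of these genes the other 4 arrays lay within 1.2 log2 of each other.

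The genes of the growth factor Vegfb, the ligand Wnt10b, the kinase Ptk2b and the damage-response factor Gadd45a were also lower on replicate 5. Vegfb gave -1.72, -1.31, -1.40, -1.31 and -9.33, but it differs from the others in the exposed ovaries. There it was at -8.84 or lower on 3 arrays, none of them the array on which Akr1c18 was low, and at -1.51 or higher on the other 12.

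Genes that were higher on replicate 5 than on the rest included phospholipases and a pair of pancreatic enzymes. Pla2g1b stood at 3.01, 2.34, 2.45, 2.92 and 5.25, and Cpa1, a carboxypeptidase, at 0.92, 0.57, 0.30, 0.17 and 3.21. Tfcp2l1, a transcription factor of epithelial cells, stood at -0.12 against -3.18 to -2.48, and Dync1i1, a dynein chain, lay 2.47 log2 above the other 4 arrays (-3.93 to -3.47). Tnfrsf11a, the receptor RANK, stood at -3.23 against -6.28 to -5.59. Cga, the subunit shared by the glycoprotein hormones, stood at -5.29, -5.18, -3.68, -4.94 and -0.09. Rln1, which encodes the luteal hormone relaxin, was high on replicates 3 and 5 (4.83 and 5.68) and lower on 1, 2 and 4 (-0.22, 1.35 and 0.77).

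The profile of replicate 5 recurred in 1 exposed ovary. Of the 17 genes lower on replicate 5 with a gap over 2 log2, 14 had their lowest exposed level on replicate 2 of the 0.06 mg/kg/day group, which held the lowest level of 15.5% of all 12565 genes. Of the 8 genes higher on replicate 5 by the same measure 7 had their highest exposed level there, against 15.9% of all genes. The members were chosen on the unexposed arrays only.

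On replicate 3 there were 45 genes higher than on the other 4 arrays and 23 lower. Nmu, the peptide neuromedin U, stood at -0.54 against -7.78 to -5.93. Ptprn, a protein of secretory granules, stood at 0.92 against -4.69 to -3.46, Chgb, the granule protein chromogranin B, at -1.02 against -5.48 to -4.74, and Adcyap1, the peptide PACAP, at -2.63 against -7.94 to -6.56. Penk, which encodes enkephalins, and the matrix protease Mmp2 followed the same way (0.20 against -2.75 to -2.24, and 3.79 against 1.56 to 1.76). Beside Cyp17a1 and Cdh1, the lower genes included Prmt8, an arginine methyltransferase, at -9.10 against -3.71 to -2.51, and Gpat2 at -5.75 against -3.26 to -2.32. The cardiac myosin genes Myh6 and Myh7 were also lowest on this array, at -1.08 and -3.20.

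No single exposed ovary held most of the extremes of these genes. On replicate 3, 17 genes were higher with a gap over 2 log2. Of these, 5 had their highest exposed level on replicate 2 of the 20 mg/kg/day group, which held the highest level of 6.7% of all genes. Another 4 were highest on replicate 1 of 0.06 mg/kg/day. An SD over 1 log2 within the exposed dose groups was found for 14 of the 17, against 318 of 12565 genes (2.53%). Of the 6 lower genes 3 were lowest on replicate 5 of 60 mg/kg/day, which held the lowest level of 7.55% of all genes. Nmu, Ptprn and Cyp17a1 were shifted as on replicate 3 in the same 4 exposed ovaries. These were replicate 1 of 0.06, replicates 2 and 5 of 20 and replicate 5 of 60 mg/kg/day. There Nmu was at -0.97 or higher, Ptprn at 0.03 or higher and Cyp17a1 between -3.52 and -2.63. On the other exposed arrays they were at -2.487 or lower, -1.89 or lower and 1.71 or higher. For genes of replicate 3 with a gap over 2 log2, 3 (Kl) to 11 (Akr1b8) exposed arrays lay beyond its midpoint.

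On replicate 1 there were 28 genes higher than on the other 4 arrays and 16 lower. Arc, an immediate early gene, stood at 1.81 against -4.15 to -2.63 on the other 4. Egln3, a prolyl hydroxylase that acts on hypoxia-inducible factors, stood at -1.06 against -4.78 to -4.17, and Btg2, an inhibitor of proliferation, at 1.60 against -0.98 to -0.70. Depp1 and Kctd11 were higher by a like gap (2.44 and 2.63 log2). For each of these 5 genes no exposed array reached the midpoint of the gap, so none of the other 19 ovaries of the study resembled replicate 1 in them.

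In the list of immediate early genes, which cells switch on within minutes of a stimulus, 16 of 20 members had their highest level on replicate 1 and 10 of 20 their lowest on replicate 5. Over the 12565 genes 2401 and 2609 did so. The mean deviation of the list was 1.24 on replicate 1, 0.02 on replicate 2, -0.42 on replicate 3, -0.09 on replicate 4 and -0.75 on replicate 5. Egr2 stood at 0.15, -3.90, -4.01, -4.97 and -6.06, Fos at 0.16, -1.74, -3.20, -2.27 and -2.57, and Nr4a1 at 2.03, 0.52, -0.45, 0.20 and 0.02. Fosl1, a partner of Jun proteins, fell within the 25 most variable genes, at 0.60, -1.74, -4.15, -2.67 and -7.40. Klf2, Klf4 and Fosb did not follow, each with an SD under 0.3. Of the 25 most variable genes 7 were highest on replicate 1 and lowest on replicate 5, as were 8.21% of the 12565 genes.

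The promoter of Egr2 is shown because its level on replicate 1 lay farthest above its mean among the 20 members of the list. Arc is not on the list. The promoter of Btg2, a member on which replicate 1 stood apart, is shown beside it. The letters TGACG of the cyclic AMP response element, on either strand, are in capitals. The sequences are the 250 bases before the start, from RefSeq (GRCr8, chr13:48087691-48087940 and chr20:21054442-21054691, both minus strand). In Btg2 matches on both strands overlap.
Btg2: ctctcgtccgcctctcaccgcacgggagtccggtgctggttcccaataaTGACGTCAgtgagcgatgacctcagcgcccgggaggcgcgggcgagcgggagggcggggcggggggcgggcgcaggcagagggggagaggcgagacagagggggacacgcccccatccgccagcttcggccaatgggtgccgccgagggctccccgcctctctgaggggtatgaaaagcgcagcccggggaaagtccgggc
Egr2: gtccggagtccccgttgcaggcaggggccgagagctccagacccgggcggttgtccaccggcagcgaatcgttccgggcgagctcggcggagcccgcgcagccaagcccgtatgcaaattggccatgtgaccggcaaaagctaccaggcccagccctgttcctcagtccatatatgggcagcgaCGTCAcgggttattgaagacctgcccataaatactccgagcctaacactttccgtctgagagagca
Only genes with a single promoter entry in RefSeq's table were counted. Among these TGACG was found in 9 of the 12 members of the list and in 4661 of 24206 promoters of the same length (19.3%). The match is a description of these windows only.

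Of the genes that respond to the surge of luteinising hormone, 6 of 14 were highest on replicate 1, against 2401 of 12565 genes. On replicate 5, 8 of 14 were lowest, against 2609 of 12565 genes. On replicates 4 and 3, 4 and 3 of the 14 were highest, against 2218 and 2614 of 12565 genes. Ereg, a growth factor of the same family as Areg, was highest on replicate 3, at -3.04. Areg, a growth factor that relays the surge to the cumulus, stood at -0.25, -1.86, -4.58, -3.10 and -5.94. Rgs2, a regulator of G proteins, stood at 4.12, 1.86, 1.75, 1.63 and 0.77, and the protease Adamts1 at 3.37, 2.48, 2.36, 1.64 and 0.49. The mean deviation of the list was 0.67 on replicate 1 and -0.74 on replicate 5, and within 0.04 of 0 on the other 3. Of 19 measured genes Btc, Has2 and Il6 were under background on all 5 arrays (15.8%, against 17.3% of all genes). Ptgs2, which makes prostaglandins at ovulation, was well above background on 1. Igfbp3, a binding protein of insulin-like growth factors, was also highest on replicate 1, at 4.57 against 0.91 to 2.52, while all 15 exposed arrays lay between 1.12 and 1.81.

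Some genes switched in patterns that few other genes shared. Ggcx, the carboxylase that needs vitamin K, was at -7.76 and -8.27 on replicates 1 and 2, neither well above background, and at 0.97, 0.30 and 0.56 on replicates 3, 4 and 5. Replicates 1 and 2 share slide 1. In limma's fit of slide and dose over all 20 arrays the slide effect of Ggcx had an adjusted p of 0.753. The part of slide in these 5 arrays was not tested. In the exposed ovaries 9 of 15 arrays were at -6.20 or lower and the other 6 at 0.41 or higher. Cyp2d5 and Cyp2d1, near-identical drug-metabolising cytochromes whose probes may not tell them apart, were not well above background on replicate 1 and lay between -4.30 and -2.18 on the other 4, and 5 of 15 exposed arrays were low for both. Serpinc1, which encodes antithrombin, was high on replicates 1 and 3 (0.71 and 1.66) and at -4.74 to -3.78 on the others. By a gap of at least 2 log2, Ephx2 split the arrays as Ggcx did, and Cav3 as Serpinc1 did.

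**Figure D4:**
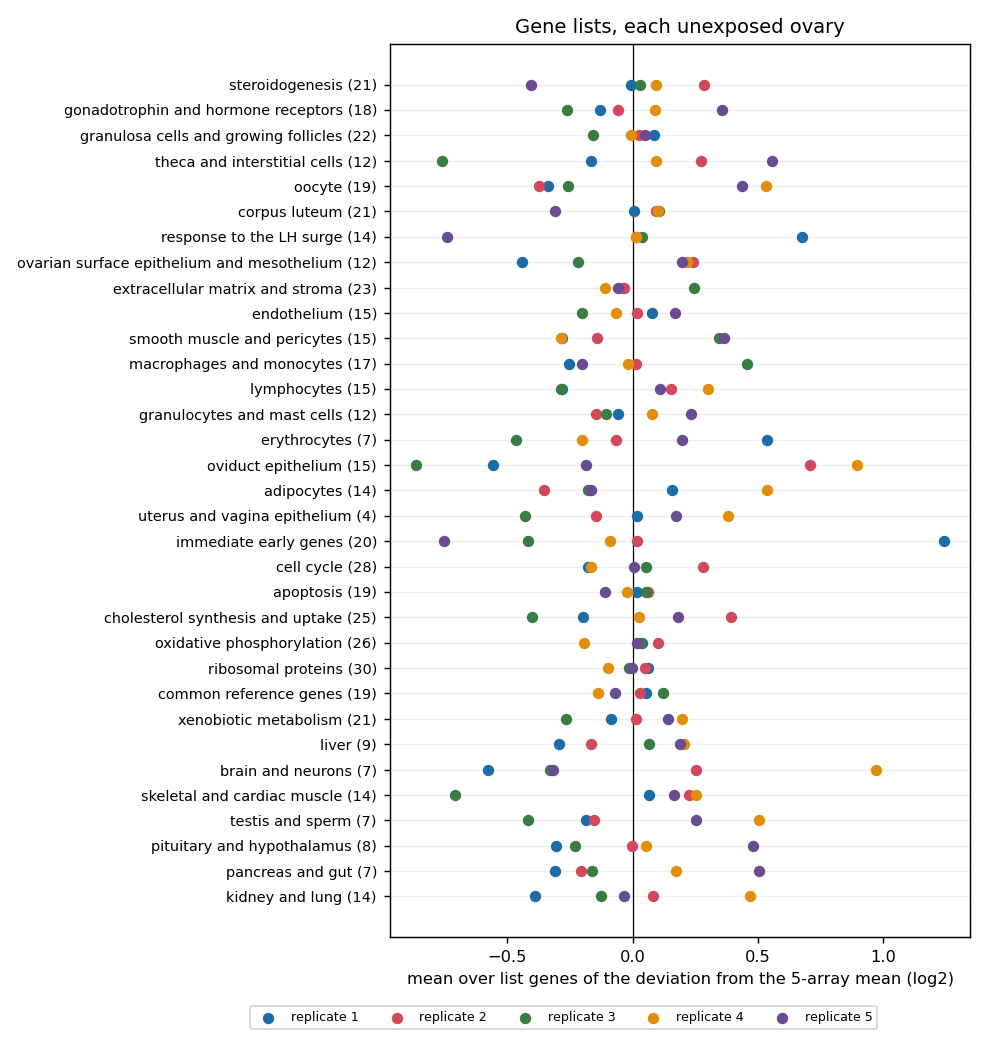
Mean over the genes of each list of the deviation from the gene's own mean over the 5 unexposed arrays (x axis, log2), 1 point per ovary coloured by replicate, with the number of genes well above background on at least 2 arrays in brackets. Immediate early genes on replicate 1 (1.24) lie farthest from 0, oviduct genes are positive on replicates 2 and 4 only, and ribosomal proteins stay within 0.10 of 0.

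Lists of other cell types also had arrays on which most members were high. Of 17 macrophage genes 14 were highest on replicate 3, against 2614 of 12565 genes, and the mean deviation there was 0.46. Replicate 3 is the only one of the 5 on slide 2, and 5 of the 17 genes had a slide effect in limma's fit, against 13.7% of all genes. The part of slide in this result was not tested. C1qb, a complement subunit made by macrophages, stood at 2.64, 2.78, 3.46, 2.77 and 2.36. Hba-a1, a haemoglobin chain of red cells, stood at 6.51, 6.01, 5.44, 5.85 and 6.13, and the erythrocyte list had its highest mean deviation on replicate 1 (0.54) and its lowest on replicate 3 (-0.47). Among smooth muscle genes Actg2 was highest on replicate 3 (3.50 against 1.62 to 2.50), and the list stood at 0.35 and 0.36 on replicates 3 and 5. Adipocyte genes were highest on replicate 4 for 9 of 14 genes, against 2218 of 12565 genes, and Adipoq stood at -0.40 and -0.35 on replicates 1 and 4 against -2.03 to -1.77. The part of fat, muscle or blood in any of the sets above was not tested.

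Genes of cholesterol synthesis were lowest on replicate 3 for 13 of 25 members, against 3039 of 12565 genes, and highest on replicate 2 for 11, against 1615. Hmgcs1, which makes the precursor of mevalonate, ran from 3.15 on replicate 5 to 5.52 on replicate 2, and Msmo1 from 4.38 on replicate 3 to 6.04 on replicate 2. None of the 25 had an SD over 1. In the cell cycle list 18 of 28 genes were highest on replicate 2, against 1615 of 12565 genes, with a mean deviation of 0.28 there. An SD over 1 was found for 1 of 28, near the 4.2% of all genes. That gene was Aurka, a mitotic kinase, at 2.86, 1.52, 0.71, 1.47 and -0.01, with its highest level on replicate 1. Apoptosis genes were steadier, with a median SD of 0.20 and none of 19 over 1 log2.

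The spread that chose the most variable genes was also seen in animals that did not choose them. All 25 had an SD over 1 log2 within the dose groups of the 15 exposed arrays (1.27 to 4.22, median 1.99), whereas 318 of 12565 genes did (2.53%). All 25 lay in the top 5% of exposed SDs. None of the 25 had a slide effect at an adjusted p under 0.05 in limma's fit, against 13.7% of all genes. That test sets slide shifts against the spread between animals, which was large in these genes by choice. It therefore says nothing on the part of slide in their spread. On the exposed arrays limma's F test of the residual variance against the prior called 0 of 12565 genes after adjustment and 667 at an unadjusted p under 0.05. On simulated data with widened genes it had next to no power, so it says nothing on the spread of these genes.

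**Figure D5:**
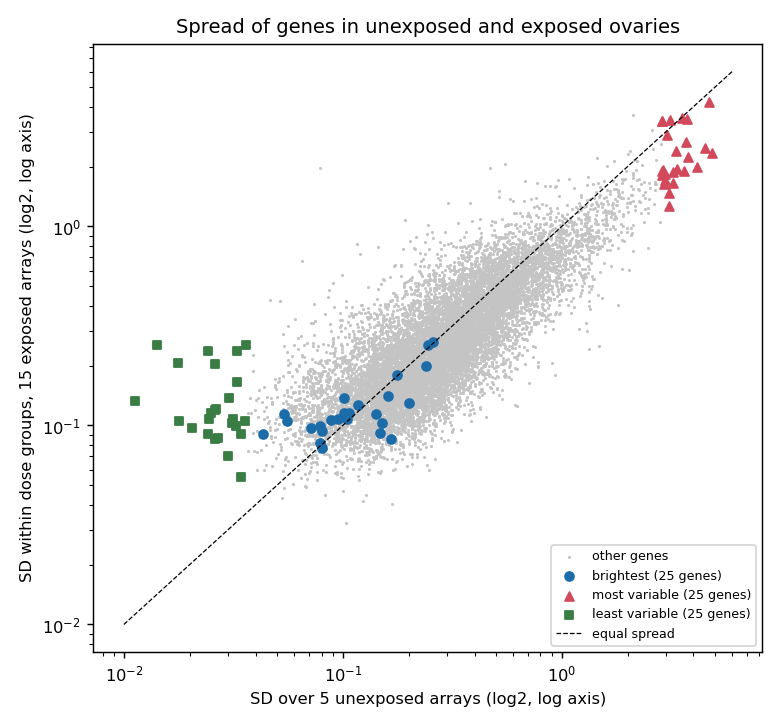
SD over the 5 unexposed arrays (x axis) and pooled SD within dose groups over the 15 exposed arrays (y axis), both in log2 on log axes, for the 12565 genes. The dashed line marks equal spread, and blue circles are the 25 brightest genes. The 25 most variable genes (red) all lie above 1 on both axes, and the 25 least variable genes (green) lie above the line, between 0.055 and 0.255 on the y axis.

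The genes that varied least were spread over many functions and levels. The 25 with the smallest SD among the 11610 genes had SDs from 0.011 to 0.036, with Tfam just outside at 0.037, and mean levels from -2.80 to 3.73. Sh3bp5l had the smallest, at 1.37, 1.38, 1.40, 1.37 and 1.37. Mocs2, of molybdenum cofactor synthesis, stood between 0.06 and 0.09 on all 5 arrays. Psmb1 and Psmb2 of the proteasome stood at 1.99 to 2.05 and 2.95 to 3.01. Others were Cfl2, which remodels actin, Mapkapk2, a stress kinase, Nbn and Ercc3 of DNA repair, Smarce1 of chromatin remodelling, Lrp6, a receptor of Wnt signals, and Fcgr2a, an immunoglobulin receptor. In Sh3bp5l the highest array exceeded the lowest by 1.02-fold.

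The members of this set depended on which arrays were used. The median SD between spots of the same probe on 1 array was 0.0545 among the 21 members spotted at least 2 times, above their median SD between arrays of 0.0269. Only 6, 11, 10, 8 and 9 of the 25 remained when replicate 1, 2, 3, 4 or 5 was left out, and 2 remained after slide effects were removed. Of the 25, Lrp6 had a slide effect (limma, adjusted p = 0.031). Other probes of the same genes varied more. The other probe of Sh3bp5l had an SD of 0.29, that of Cfl2 0.23, that of Api5 0.31 and that of Smarce1 0.19, and the 2 further probes of Agps had SDs of 0.37 and 0.20. The difference was small for Mapkapk2 (0.033 against 0.026) and Lrp6 (0.086 against 0.033). These other probes were dimmer than the probe used, in Sh3bp5l at a mean of -5.72 against 1.38. On the exposed arrays, which did not choose them, their SDs ran from 0.055 to 0.255 with a median of 0.108, against 0.242 over all genes. There 23 of the 25 had an SD below that median and 18 lay in the lowest 25% of SDs.

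Ribosomal proteins were steadier as a group than genes commonly used as references. All 30 listed ribosomal genes were well above background, with a median SD of 0.08, a median exposed SD of 0.11 and a median level of 6.30. The 19 measured reference genes had a median SD of 0.20. Among them Rpl13a (6.60 ± 0.06, SD, n = 5), Ppia (SD 0.10), Ubb (0.10) and Tbp (0.15) had the smallest SDs. Gapdh, at 4.42, 4.24, 4.83, 4.00 and 3.83, ran over 1.0 log2 and was highest on replicate 3. Hprt1, Pgk1 and Tfrc had SDs of 0.37, 0.41 and 0.59. Oxidative phosphorylation genes lay between (median SD 0.18), with 19 of 26 lowest on replicate 4, as were 22 of the 30 ribosomal genes and 1524 of 12565 genes.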

How the data were processed

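Total RNA (100 ng) of whole ovaries was hybridised to 1-colour Agilent arrays of rat genes (probe design of build rn4). Spot intensities were deposited as Feature Extraction 11.5.1.1 output (protocol GE1_1105_Oct12, scanner G2600D), already background-subtracted and detrended within each array, per the file headers. The deposited flags of 0 or 1 per spot (other values) marked outliers, saturation and signal well above background, per the file headers. The submitters' deposited log2 table, whose baseline and scaling are not stated, served as an alternative; its column medians ran from -0.072 to 0.0122 and its direction matched the scanner values (r of 0.972 to 0.991 over 19847 probes).

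Control and outlier spots were left out, each array was scaled to its 75th percentile, spots of a probe were averaged and the brightest probe stood for its gene. Of 30367 probes, 18758 carried 1 gene symbol, 0 several and 11609 none. Spread was described for genes well above background on at least 2 arrays. Slide was fitted over 20 arrays and spread over the 15 exposed arrays, with limma 3.58.1 in R 4.3.3. Both used Benjamini-Hochberg adjustment over all 12565 genes and were tested on simulated data. The genes named are the 25 brightest, most variable and least variable, up to 5 per array and direction that stand apart by the largest gap, and members of the lists; a few others were chosen after their values were seen. Members and lists were chosen with earlier results of these data known. Normexp used the median signals, since the mean signal was not used here. Each replicate is 1 animal.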

Additional observations from a re-analysis of the deposited data

Results flagged for a closer look

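For each named gene and each list mean, the gap between the highest or lowest array and its neighbour was divided by the range over the 5 unexposed arrays and set against Dixon's 95% critical value for 5 samples. Chance flags about 1 in 20 groups. The genes of single arrays were chosen by this same gap, so that their ratios describe them and are no test.

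Replicate 1 was the high array for Arc (0.746), Egln3 (0.836), Kctd11 (0.808), Depp1 (0.716) and Btg2 (0.892). It was the low array for Cyp2d5 (0.742), Cyp2d1 (0.727), C17h6orf52 (0.868), Mei1 (0.789) and Stpg1 (0.758). Replicate 2 was high for C1h11orf86 (0.711) and Clic3 (0.779) and low for Slc25a54 (0.734) and Gpd1 (0.721). Replicate 3 was high for Nmu (0.745), Ptprn (0.782), Adcyap1 (0.739), Chgb (0.833) and Asgr2 (0.723), and low for Prmt8 (0.818), Cyp17a1 (0.872), Cdh1 (0.75), Gpat2 (0.726) and Tmeff1 (0.732). Replicate 4 was high for Wdr33 (0.782) and Pramel6 (0.725) and low for Rpl13 (0.72) and Hsd3b3 (0.917). Replicate 5 was high for Pla2g10 (0.726), Trim50 (0.839), Dync1i1 (0.844), Tfcp2l1 (0.773) and Tnfrsf11a (0.772), and low for Akr1c18 (0.905), Vtcn1 (0.919), Vegfb (0.949), Slc51a (0.93) and Tafa5 (0.97).

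Of 33 lists 4 had a mean deviation that stood apart on 1 array. These were the corpus luteum list (0.764, replicate 5 lower), extracellular matrix and stroma (0.786, replicate 3 higher), oxidative phosphorylation (0.723, replicate 4 lower) and skeletal and cardiac muscle (0.808, replicate 3 lower). The corpus luteum list holds Akr1c18, at -4.23 on replicate 5 against a mean of 4.40, and a list mean can follow such a member. Of its 21 genes 6 were lowest and 5 highest on replicate 5, against 2609 and 3717 of 12565 genes.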

How the results depend on the processing

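Counts of genes well above or under background, of genes on which 1 array stood apart and of slide effects stayed within 1.5 times under the alternatives run. The genes themselves changed more, since of the 180 on which 1 array stood apart 67 remained with slide effects removed, 105 under normexp and 126 under quantile normalization. Of the 25 brightest genes 13 remained with the mean over all probes. Of the 25 most variable 10 remained under normexp, 6 among genes well above background on all 5 arrays, and 16 to 23 when 1 replicate was left out. Of the 25 least variable 7 remained under quantile normalization, 4 under normexp, 2 with slide effects removed, 9 in the submitters' log2 table, and 6 to 11 when 1 replicate was left out. The cause was not tested. Chosen after seeing the data, a gap of at least 1 log2 gave 88 genes high on replicates 2 and 4 in place of 47, and an SD over 1 log2 gave 318 genes with spread in the exposed ovaries, where limma's test called 0 (667 at an unadjusted p under 0.05, 588 to 677 over its alternatives). Signal near background limits the folds of genes not well above it. No paired analysis was possible because only 1 group is described.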
